A study of Mus musculus with 2 samples.

Results

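Serpins are a family of protease inhibitors, and 6 of their genes were followed here in GD2TIF cells: Serpina3g, Serpina3f, Serpine2, Serpinb9, Serpinb6b and Serpinb6a. They were chosen from earlier results of these same data, from their levels over all cells and over families of cells that share a T cell receptor beta chain. They were also chosen for a division between families high in Serpina3g and families high in Serpine2. The 6 belong to 20794 genes of the count matrix, of which 20 carry a name beginning with Serpin. GD2TIF cells are mouse T cells with a Cas9 transgene that had been activated, infected with a retrovirus targeting Bcor and Zc3h12a and carrying the GD2 chimeric antigen receptor 14g2a, and given at 1000000 cells per mouse to immunocompetent C57BL/6 mice. After 2 months, splenic CD8+Thy1.1+ cells were sorted and used to make 1 RNA library of single cells and 1 library of their T cell receptors. All cells therefore share both targeted genes, the receptor and the Cas9 background. There is no untreated group, the mice's age and number are not given in the sources used here, and differences between receptor families cannot be told apart from differences between mice.

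A serpin offers a protease a loop of its own chain as bait, and once cut it traps the enzyme in an inactive complex. In cytotoxic lymphocytes, which carry granzymes in lysosome-like granules, intracellular serpins are known to protect the cell from its own proteases. Serpina3g (also called Spi2A) inhibits lysosomal cysteine cathepsins and is known for its part in the survival of mouse memory CD8 T cells. Serpinb9 (Spi6) inhibits granzyme B, Serpinb6b has been described as an inhibitor of granzyme A, and Serpinb6a is a broadly expressed intracellular inhibitor. Serpine2 (protease nexin-1) is secreted and inhibits thrombin and plasminogen activators. Serpina3f is a close paralogue of Serpina3g.

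The RNA library held 10338 cells after filtering, with a median of 1922 unique molecular identifiers (UMIs, each counting 1 captured molecule) and 5th and 95th percentiles of 815 and 4244. Of these, 3879 had exactly 1 productive T cell receptor beta chain (TRB), 247 had 2 or more and 6212 had none. Cells with the same TRB CDR3 nucleotide sequence, the stretch that joins the V, D and J segments, were taken as 1 family. The 12 families of at least 50 cells held 2614 cells and are lettered A to L from the largest, A with 882 cells, to the smallest, L with 50. The labelled CD8 T cell type matched the markers, with Cd3e between 1193 and 1751 counts per 1000000 UMIs (CPM) and Cd8a between 98.0 and 523 CPM in the 12 families. Cd4 was listed at 0 in 11 of them and stood at 4.81 CPM in family G. There is 1 library of each kind and so no replicate. Intervals in parentheses are exact and 95% wide (Poisson for CPM, Clopper-Pearson for shares of cells, conditional for ratios), and they cover counting error only.

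The receptor sequences are shown because every comparison below rests on them. Families B and C were high in Serpina3g, families A, D and I were high in Serpine2, and family G was the only other one high in Serpina3f. In each TRB CDR3 the capitals mark the bases that lie between the start shared by most sequences of the same V segment and the end shared by most sequences of the same J segment, that is, the stretch that sets the families apart. The TRB locus lies on mouse chromosome 6.
Family B TRB CDR3: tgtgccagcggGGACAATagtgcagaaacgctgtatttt
Family C TRB CDR3: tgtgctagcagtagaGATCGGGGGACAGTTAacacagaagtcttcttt
Family A TRB CDR3: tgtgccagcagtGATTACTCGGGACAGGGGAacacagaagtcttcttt
Family D TRB CDR3: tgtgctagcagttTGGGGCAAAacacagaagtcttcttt
Family I TRB CDR3: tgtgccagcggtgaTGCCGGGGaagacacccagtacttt
Family G TRB CDR3: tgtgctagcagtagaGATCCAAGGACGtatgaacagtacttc
Families C and G both used TRBV17, C with TRBJ1-1 and G with TRBJ2-7. Families A, C and D all used TRBJ1-1 and lay on different sides. Families B and I were both assigned to TRBV12-2 and TRBV13-2 together, and they too lay on different sides.

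Over all cells, Serpinb6b had the most UMIs of the 6 genes and Serpina3f the fewest. Serpina3g had 950 UMIs in 646 cells, or 42.6 CPM (40.0 to 45.4) and 6.25% of cells. Serpina3f had 257 UMIs, or 11.5 CPM (10.2 to 13.0), and Serpine2 had 882 UMIs in 531 cells, or 39.6 CPM (37.0 to 42.3). Serpinb9 stood at 45.2 CPM (42.5 to 48.1), Serpinb6b at 86.4 CPM (82.5 to 90.3) with a UMI in 13.9% of cells, and Serpinb6a at 15.8 CPM (14.2 to 17.5). These values are per UMI and not per transcript length, so they rank captured molecules and not transcripts per gene length. Of the other 14 genes named Serpin, Serpini1, which encodes neuroserpin, had 145 UMIs over all cells, and Serpinb1b with 29, Serpina9 with 26 and Serpinb1a with 22 came next.

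Both Serpina3g and Serpine2 had no UMI in most cells. The highest count in a cell was 7 UMIs for Serpina3g and 9 for Serpine2, and 193 and 185 cells had 2 or more UMIs of these genes. Serpinb9, with more UMIs in all, had at most 4 in a cell and 138 cells with 2 or more. In the families of at least 50 cells Serpina3g averaged 59.6 CPM (53.6 to 66.0), against 19.1 CPM (13.3 to 26.5) in families of 3 to 49 cells and 26.2 CPM (16.2 to 40.0) in those of 1 or 2. Of the 367 UMIs in the large families, 304 lay in families B and C, and the median of the 12 families was 15.7 CPM. Serpinb6b differed little by family size, with 82.8 CPM (75.8 to 90.3) in the families of at least 50 cells, 81.3 CPM (68.7 to 95.4) in those of 3 to 49 and 105 CPM (83.6 to 130) in those of 1 or 2.

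Low counts in a cell of a droplet or microwell library can come from free RNA. For comparison, 144 cells with UMIs of at least 2 B cell markers, which sorted CD8 cells should lack and which may be mixed barcodes, were examined. They had a median of 2613 UMIs, and 6.94% (3.38 to 12.4) held a Serpina3g UMI and 4.86% (1.98 to 9.76) a Serpine2 UMI. These shares are like those of all cells, 6.25% and 5.14% at a median of 1922 UMIs. Mixed barcodes can hold the RNA of a T cell, so these cells cannot measure free RNA alone. Some families had lower shares, such as 1.25% (0.624 to 2.22) of family A for Serpina3g and 0.667% (0.182 to 1.70) of family B for Serpine2. The part of free RNA in the counts was not tested.

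Serpina3g was concentrated in families C and B. A family was called high in a gene where its CPM was at least 1.5 times that of all other cells with exactly 1 TRB and the interval of the ratio left out 1, and low at the inverse fold by the same rule. Since the division used these values, they are a description and not a finding. Family B had 188 UMIs, or 115 CPM (99.3 to 133), at 3.51 times the other cells (2.88 to 4.27). Family C had 116 UMIs, or 232 CPM (192 to 279), at 6.28 times (5.03 to 7.80). A Serpina3g UMI was seen in 20.7% of the cells of family B (17.5 to 24.1) and in 34.5% of those of family C (27.9 to 41.5), against 1.25% (0.624 to 2.22) in family A. Family G lay just outside the rule at 77.0 CPM (44.0 to 125) and 1.62 times (0.920 to 2.67). The other 9 families lay between 5.50 CPM in family I and 33.3 CPM in family F, and 6 families (A, D, E, H, I and J) were low, where 2.65%, 4.37%, 5.75%, 7.44%, 4.83% and 6.98% of the 4716 genes with at least 200 UMIs were low. Families B and C held 82.8% of the Serpina3g UMIs of the 12 families and 30.6% of their cells. In the order of levels from C through B and G to I, only C and B, with a ratio of 2.02 (1.59 to 2.56), differed beyond counting error from their neighbour.

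Serpine2 was concentrated in other families. Family A had 189 UMIs, or 97.5 CPM (84.1 to 112), at 3.34 times the other cells (2.72 to 4.10). Family D stood at 118 CPM (88.8 to 154) and 2.94 times (2.17 to 3.93), and family I at 93.5 CPM (54.5 to 150) and 2.17 times (1.25 to 3.52). Just outside the rule, family L stood at 87.1 CPM (37.6 to 172) with 8 UMIs and 1.99 times (0.853 to 3.96). Family B had 3.06 CPM (0.994 to 7.15), the lowest of the 12, and family C 8.01 CPM (2.18 to 20.5). Families B, C, E, H and J were low (5.96% and 7.06% of genes were low in B and C), and no family was high in both genes. A Serpine2 UMI was seen in 14.5% of the cells of family A (12.2 to 17.0), in 12.5% of those of family D (8.18 to 18.03) and in 10.99% of those of family I (5.40 to 19.3). In family B the share was 0.667% (0.182 to 1.70). The intervals of D and I overlap that of the B cell-marked cells, while those of families B and C for Serpina3g do not overlap theirs. Since the B cell-marked cells may hold T cell RNA, this overlap sets no floor for expression. Families A, D and I held 87.0% of the Serpine2 UMIs and 44.6% of the cells. No family differed beyond counting error from its neighbour in this order. Families E, H and J were low in both genes. Family E had 6.34 CPM (0.767 to 22.9) of Serpina3g and 3.17 CPM (0.0802 to 17.7) of Serpine2. Family H had 13.5 CPM (2.78 to 39.4) and 8.99 CPM (1.09 to 32.5), and family J 17.9 CPM (4.88 to 45.9) and 8.96 CPM (1.09 to 32.4). The 2 genes therefore do not divide all families between them.

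**Figure D1:**
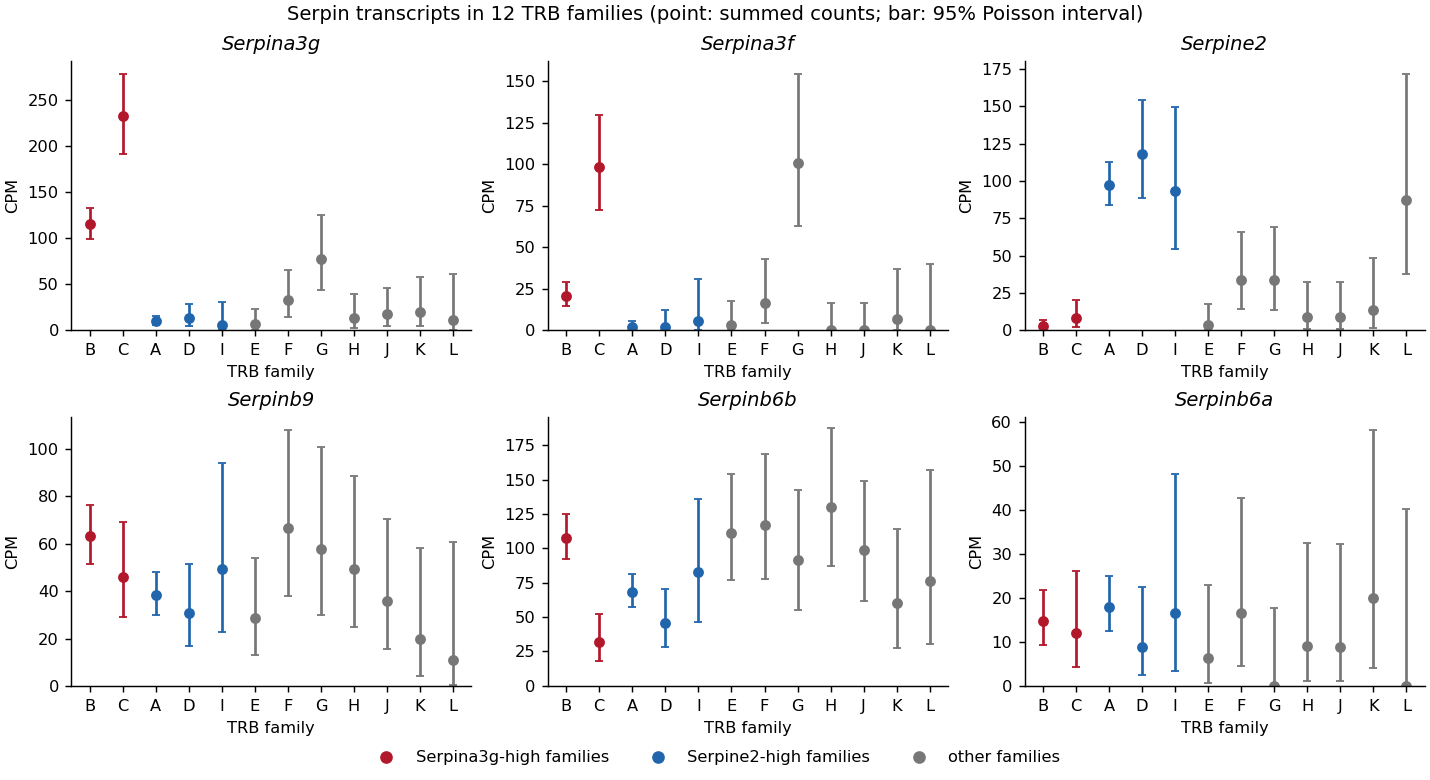
CPM of each of the 6 serpins (vertical axes, each with its own scale) in each of the 12 TRB families (horizontal axes), with points for summed counts and bars for 95% Poisson intervals. Serpina3g stands out in families B and C, Serpina3f in C and G, and Serpine2 in A, D, I and, with a wide interval, L, while the 3 clade B serpins show overlapping intervals in most families.

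**Figure D2:**
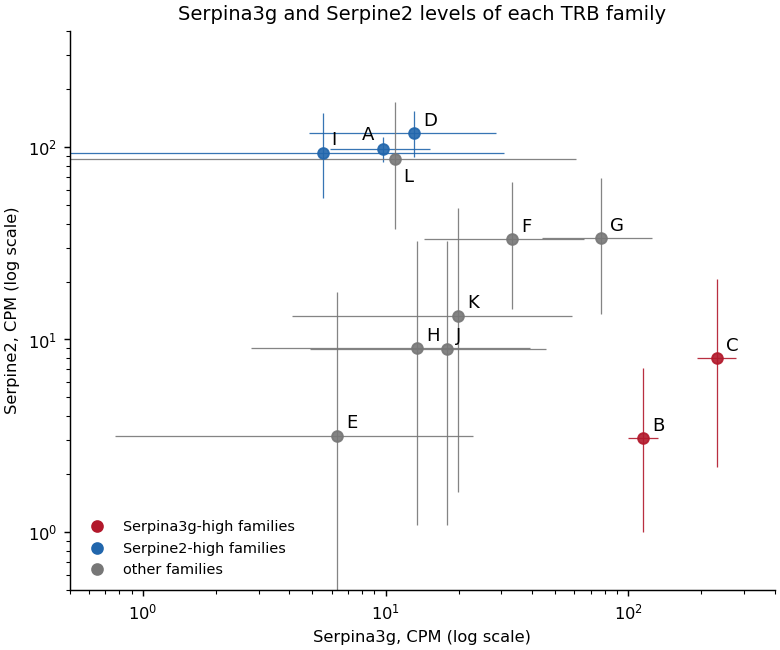
Serpina3g CPM (horizontal, log scale) against Serpine2 CPM (vertical, log scale) for each TRB family, with 95% Poisson intervals. Families B and C lie at the lower right, A, D, I and L at the upper left, and E, H and J are low on both axes.

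Since Serpina3g and Serpine2 were chosen for their levels over families, their spread is a description too. Over the 12 families the standard deviation of log2(CPM + 20) was 1.05 for Serpina3g and 1.00 for Serpine2, ranks 21 and 25 of the 4716 genes with at least 200 UMIs in the families. The same measure was 0.44 for Serpinb9 and 0.46 for Serpinb6b, ranks 813 and 730. Serpina3f, with 116 UMIs in the families, and Serpinb6a, with 85, did not reach 200 UMIs and have no rank. As background for the calls above, 2.52% of the 4716 genes were high in family B and 3.69% in family C, and 4.07%, 3.39% and 3.82% in families A, D and I. At least 2 families were high for 8.14% of genes and at least 3 for 1.63%. At least 2 high and at least 2 low families, as Serpina3g and Serpine2 both have, were found for 3.58%. These percents stand beside the calls only, since the genes were chosen for this pattern.

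Depth and markers of other cell types also varied between the families. Family B had a median of 2530 UMIs per cell and family C 2130, against 2060, 2153 and 1906 in families A, D and I. Of 5 erythroid markers in the matrix, the summed level in family B was 1944 CPM and in family C 2.00 CPM, against 6.57 to 12.9 CPM in families A, D and I. The 5 natural killer markers summed to 1.23 and 66.1 CPM in families B and C, against 0 to 3.09 CPM in families A, D and I. In B and C this sum was Gzma alone, a granzyme gene that CD8 T cells also use, and Ncr1, Klrb1c and Klra4 were at 0. The 9 B cell markers summed to 107 and 96.2 CPM in families B and C, against 96.3 to 173 CPM in families A, D and I, with Pax5 at 0. Cells with UMIs of at least 2 markers of another cell type were left out as a check. Serpina3g then stood at 118 and 238 CPM in families B and C. Serpine2 stood at 100.5, 120.5 and 94.7 CPM in families A, D and I, and all 5 values lay within the intervals given above. Cells with UMIs of only 1 such marker stayed in, and the part of these markers in the serpin levels was not tested further. After thinning each cell to 1000 UMIs, families B and C remained those high in Serpina3g and families A, D and I those high in Serpine2.

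Serpina3f followed its paralogue only in part. It was high in family B with 34 UMIs, or 20.8 CPM (14.4 to 29.1), at 1.60 times the other cells (1.05 to 2.40). Family C had 49 UMIs, or 98.2 CPM (72.6 to 130), at 10.4 times (7.15 to 15.1), and family G had 21 UMIs, or 101 CPM (62.5 to 154), at 8.19 times (4.87 to 13.2). As background, 5.11% of genes were high in family G. The call in family B was lost when a 2-fold difference was asked, when the other families were weighted equally and after thinning. Families A, with 4 UMIs, and D, with 1, were low, and families H, J and L had none, where 3 UMIs would be 13.5, 13.4 and 32.7 CPM.

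The balance of both paralogues differed between the families that had them. Of the UMIs of Serpina3f and Serpina3g together, Serpina3f made up 15.3% in family B (10.9 to 20.7), 29.7% in family C (22.9 to 37.3) and 56.8% in family G (39.5 to 72.9). The 3 intervals do not overlap. Families C and G, which use the same V segment, had like levels of Serpina3f, with a ratio of 1.03 for G over C (0.586 to 1.75), while Serpina3g was 232 CPM in C and 77.0 CPM in G. The sources used here do not give how reads matching both genes were assigned, so the split between the paralogues is uncertain.

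Serpina3f and Serpina3g lie on chromosome 12 (GRCm38.p6) at chr12:104214544-104221129 and chr12:104236147-104241939, 15017 bases apart with 1 gene between. Serpine2 lies at chr1:79794317-79858665. Serpinb6b at chr13:32956811-32979067 and Serpinb9 at chr13:32997061-33017955 are neighbours with no gene between, and Serpinb6a lies further along at chr13:33917918-34002794. The promoters of the genes that were high together, and of Serpine2, are printed from RefSeq's sequences of that build, from 250 bases before the start to 50 after it. Capitals mark the motif TTCNNNGAA, known as the gamma-activated site of interferon gamma signalling, which was searched on both strands and reads the same on each.
Serpina3g promoter, chr12:104235897-104236196, plus strand: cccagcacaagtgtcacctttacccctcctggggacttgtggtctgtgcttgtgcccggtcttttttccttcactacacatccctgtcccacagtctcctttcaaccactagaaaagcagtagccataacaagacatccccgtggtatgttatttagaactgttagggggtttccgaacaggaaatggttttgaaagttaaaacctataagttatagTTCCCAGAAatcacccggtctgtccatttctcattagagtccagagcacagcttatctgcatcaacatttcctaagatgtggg
Serpina3f promoter, chr12:104214294-104214593, plus strand: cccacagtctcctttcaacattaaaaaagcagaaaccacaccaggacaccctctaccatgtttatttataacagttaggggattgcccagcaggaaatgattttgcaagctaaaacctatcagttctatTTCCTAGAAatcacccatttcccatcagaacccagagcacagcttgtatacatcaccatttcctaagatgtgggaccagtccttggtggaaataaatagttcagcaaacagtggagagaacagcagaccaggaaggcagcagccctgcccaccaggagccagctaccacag
Serpine2 promoter, chr1:79858616-79858915, minus strand: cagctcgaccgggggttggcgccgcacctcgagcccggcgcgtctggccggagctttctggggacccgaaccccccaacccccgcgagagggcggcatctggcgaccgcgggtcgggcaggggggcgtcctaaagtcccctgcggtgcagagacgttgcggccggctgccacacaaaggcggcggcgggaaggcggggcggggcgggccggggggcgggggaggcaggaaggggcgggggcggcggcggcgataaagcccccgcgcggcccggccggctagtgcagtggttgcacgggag
The Serpina3g and Serpina3f promoters each held 1 match, and they were identical at 169 of 214 aligned positions (79.0%). A match was found in 8.30% of 32851 promoters of this length. The motif was also found in the first Serpinb6a promoter, with 2 matches, and in none of the windows of Serpine2, Serpinb9 and Serpinb6b. The interferon-stimulated motif GAAANNGAAA, searched on both strands, was in the windows of Serpinb9 and of Serpinb6a and in 3.44% of all promoters. Serpine2 had a promoter of another base composition, with 77.7% G or C and 41 CpG, at the 97.9th percentile of G and C content, against 45.7% and 46.0% for Serpina3g and Serpina3f and a median of 52.7%. These matches describe letters and not sites in use.

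Serpinb9, the granzyme B inhibitor, varied less between families. It ranged from 10.9 CPM in family L, with 1 UMI, through a median of 42.1 CPM to 66.7 CPM in family F. Family B was its only high family, at 63.1 CPM (51.5 to 76.5) and 1.60 times the other cells (1.26 to 2.01). A high call in at least 1 family was made for 36.3% of genes. Family C had 46.1 CPM (29.2 to 69.1), against 38.2, 30.7 and 49.5 CPM in families A, D and I.

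Serpinb6b, the neighbour of Serpinb9, differed between both Serpina3g-high families. It stood at 108 CPM (92.5 to 125) in family B and at 32.1 CPM (18.3 to 52.1) in family C, against 68.6, 46.0 and 82.5 CPM in families A, D and I. Family C was low at 0.366 times the other cells (0.208 to 0.598), as was family D at 0.531 times (0.327 to 0.818), where 7.06% and 4.37% of genes were low. Family H was high at 130 CPM (87.3 to 187) and 1.57 times (1.04 to 2.27), where 3.82% of genes were high. Both a high and a low family were found for 19.7% of genes. Serpinb6a ranged from no UMI in families G and L to 19.97 CPM in family K with 3 UMIs, and no family was high or low.

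The division was then looked at in cells that had played no part in it. Cells without a TRB sequence but with the most frequent alpha chain (TRA) of a family numbered 51 for families B and C and 86 for families A, D and I. The families share a TRB and not a single TRA. Among family cells with exactly 1 TRA, the most frequent one was in 299 of 457 in family B and 146 of 176 in C. It was in 517 of 717 in family A, 161 of 175 in D, 49 of 73 in I and 22 of 64 in G. Serpina3g had 13 UMIs, or 128 CPM (68.3 to 219), in the cells with the TRA of families B and C, against 1 UMI, or 7.24 CPM (0.183 to 40.3), in those with the TRA of families A, D and I. Serpine2 had 0 UMIs in the cells with the TRA of B and C, where 3 UMIs would be 29.6 CPM, against 13 UMIs, or 94.1 CPM (50.1 to 161), in those with the TRA of A, D and I. Both genes had the order seen in the TRB families, and neither pair of CPM intervals overlapped. The intervals of the shares of cells with a UMI did overlap for both genes. For Serpina3g the shares were 13.7% (5.70 to 26.3) against 1.16% (0.0294 to 6.31). For Serpine2 they were 0% (0 to 6.98) against 6.98% (2.60 to 14.6), with its 13 UMIs in 6 cells. Serpina3f had 10 UMIs, or 98.7 CPM (47.3 to 181), against 1 UMI, or 7.24 CPM (0.183 to 40.3). Serpinb9, with 78.9 CPM (34.1 to 156) against 86.9 CPM (44.9 to 152), and Serpinb6b, with 88.8 CPM (40.6 to 169) against 86.9 CPM (44.9 to 152), had overlapping intervals. Serpinb6a had 5 UMIs, or 49.3 CPM (16.0 to 115), against 1 UMI, or 7.24 CPM (0.183 to 40.3), with overlapping intervals too. In the 38 cells with the TRA of the other 7 families, Serpina3g had 4 UMIs, or 56.8 CPM (15.5 to 145), and Serpine2 had none. These cells come from the same library and possibly the same mice, so they repeat the measurement over other barcodes and not over animals.

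**Figure D3:**
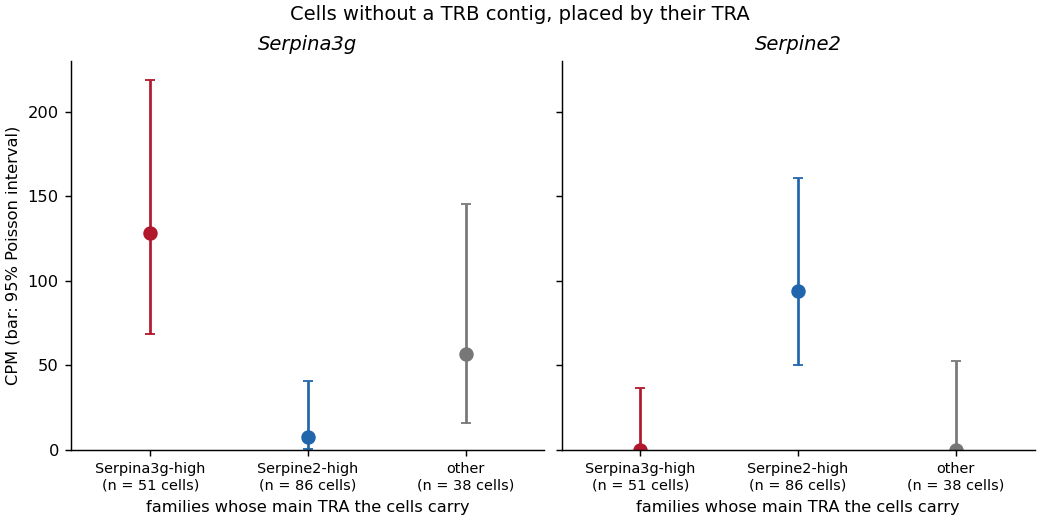
CPM of Serpina3g and Serpine2 (vertical axis) in cells without a TRB sequence, grouped by the families whose main TRA they carry (horizontal axis), with 95% Poisson intervals. Serpina3g is at 128 CPM in the 51 cells with the TRA of families B and C and at 7.24 CPM in the 86 cells with that of A, D and I, and Serpine2 is at 0 and 94.1 CPM in the same cells.

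Cells with 2 or more TRB, which may be mixed barcodes, did not all follow the division. The 48 such cells that carry the TRB of family A had 62.5 CPM of Serpina3g (28.6 to 119) and 48.6 CPM of Serpine2 (19.5 to 100), against 9.80 and 97.5 CPM in the family A cells with 1 TRB. The 64 cells that carry that of family D had 112 CPM of Serpine2 (66.3 to 177) and 6.21 CPM of Serpina3g (0.157 to 34.6).

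Within families, the 2 genes were seldom in the same cell. Of 2614 family cells, 234 had a Serpina3g UMI, 190 a Serpine2 UMI and 4 both. The product of the shares within each family gives 5.02 cells, and the product over all family cells pooled gives 17.0. The count of 4 lay near the product within families and below that over the pool. Thinned to 1000 UMIs, no cell had both, against 1.18 from the product within families. Serpina3g and Serpina3f shared cells more often, with 37 cells against 14.4 from the product within families, and 16 against 3.97 after thinning. Of the 37, 12 were in family B, 19 in family C and 4 in family G.

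Cells with and without the serpin were also set beside each other within a family. This was added after the values above had been seen. In family B, 124 cells with a Serpina3g UMI had a median of 2705 UMIs and 476 without had 2502. In family C the numbers were 69 cells at 2332 UMIs and 131 at 2036. Ly6a (Sca-1, a surface protein of stem cells and activated lymphocytes) had 532 CPM in the cells with Serpina3g, against 392 CPM in those without, in family B (ratio 1.36, 1.15 to 1.61). In family C it had 332 against 312 CPM (1.06, 0.766 to 1.47), with an interval that includes 1. The 30 interferon and cytokine inducible genes summed to 8202 against 6592 CPM in family B (1.24, 1.19 to 1.30) and to 9550 against 8068 CPM in family C (1.18, 1.12 to 1.26). Serpina3f was 6.29 times as high in family B (2.98 to 14.0) and 6.07 times in family C (2.90 to 14.2) in the cells with Serpina3g.

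For Serpine2 the 128 cells with a UMI in family A were set beside 754 without, and in family D 24 beside 168. The interferon and cytokine inducible genes summed to 4735 against 4356 CPM in family A (1.09, 1.03 to 1.15). In family D they summed to 3913 against 4358 CPM (0.898, 0.787 to 1.02). A higher sum was thus seen in family A too and was not particular to cells with Serpina3g. Pdcd1, which encodes the inhibitory receptor PD-1, had 590 against 484 CPM in family A (1.22, 1.03 to 1.43) and 800.1 against 536 CPM in family D (1.49, 1.09 to 2.02). Tox2, a transcription factor of exhausted T cells, had 124 against 105 CPM in family A (1.17, 0.810 to 1.66) and 204 against 126 CPM in family D (1.61, 0.822 to 2.97), with both intervals including 1. The summed memory and stemness list was lower in cells with Serpine2 in both families, at 4572 against 5005 CPM in family A (0.913, 0.864 to 0.966) and 3666 against 5804 CPM in family D (0.632, 0.552 to 0.720). The same list stood at 7439 against 7715 CPM in the Serpina3g cells of family B (0.964, 0.924 to 1.01) and at 3777 against 5023 CPM in those of family C (0.752, 0.689 to 0.821). Cells with Serpina3g in family C also had more Pdcd1, at 327 against 219 CPM (1.495, 1.05 to 2.14), and more Tox2, at 42.7 against 10.4 CPM from 9 and 3 UMIs (4.10, 1.02 to 23.5). In family B, Pdcd1 had 217 against 193 CPM (1.13, 0.863 to 1.45) and Tox2 21.7 against 22.2 CPM (0.981, 0.386 to 2.21). The interval for Pdcd1 thus left out 1 in families C, A and D, that is, for both serpins. The summed effector and exhaustion list, which holds Pdcd1 and Tox2, did not follow in all of these. In cells with Serpine2 its ratio was 1.11 (1.04 to 1.175) in family A and 0.992 (0.859 to 1.14) in family D. In cells with Serpina3g it was 0.960 (0.882 to 1.04) in family B and 1.31 (1.17 to 1.46) in family C. Depth differed in the same direction in all 4 families, and its part in these ratios was not tested.

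Other genes were compared between the sides of the division, as the mean CPM of families B and C over that of families A, D and I, with each family weighted equally. A gene was counted as higher or lower at 1.5-fold, which 3.73% of the 4716 genes passed upward and 6.04% downward. Of the 4 serpins that reached 200 UMIs, Serpina3g and Serpine2 passed by construction, at means of 174 against 9.48 CPM and 5.54 against 103 CPM. Serpinb9, at means of 54.6 and 39.4 CPM (1.38-fold), and Serpinb6b, at 69.9 and 65.7 CPM (1.07-fold), did not pass. Serpinb6b hides the gap between families B and C given above, and the fold was 0.488 without family B and 1.64 without family C. Serpina3f and Serpinb6a, under the minimum, had 59.5 and 3.25 CPM and 13.4 and 14.4 CPM. With a minimum of 50 UMIs, which both reached, 8.27% of genes passed upward and 11.1% downward, and Serpina3f passed at 18.3-fold while Serpinb6a did not. The Serpina3f fold was 30.2 without family B and 6.41 without family C.

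Interferon and cytokine inducible genes were higher in the Serpina3g-high families. Of 30 genes, 22 reached the minimum, 14 were higher and 1 lower, and the median log2 fold on the CPM + 20 scale was 0.90, against -0.02 over all genes tested. Ly6a had 423 and 321 CPM in families B and C, against 29.9, 30.7 and 66.0 CPM in families A, D and I. The interferon-inducible GTPase gene Iigp1 had 86.4 and 200.3 CPM, against 8.25, 8.76 and 33.0 CPM. Igtp, another of these GTPase genes, had 167 and 397 CPM, against 61.9, 54.7 and 66.0 CPM, and the groups did not overlap for any of these 3 genes. Both families B and C lay above all of A, D and I for 10.3% of the genes tested. Ifngr1, a chain of the interferon gamma receptor, was the gene that was lower, at 99.2 and 106 CPM against 199, 138 and 171 CPM. Isg15, Ifit1 and Ifit3, known targets of type I interferon, did not reach the minimum, and Isg15 had means of 39.2 and 32.0 CPM. The number of genes that were higher was 16 without family B, 9 without family C and 9 after thinning. This list was drawn up with earlier results of these data known, so its direction is no independent evidence.

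Effector and exhaustion genes were lower on average. Of 20 genes, 12 reached the minimum, 7 were lower and 1 was higher, with a median log2 fold of -0.52. Tox2 had 22.1 and 24.0 CPM in families B and C, against 108, 138 and 93.5 CPM in families A, D and I. Pdcd1 had 199 and 264 CPM, against 501, 576 and 611 CPM. Ikzf2, which encodes the transcription factor Helios, had means of 131 and 300.4 CPM, and Maf, Ctla4, Tigit and Nr4a2 were also lower by their means. The sides overlapped for Maf, Tigit and Nr4a2. Tigit had 49.6 and 80.1 CPM in families B and C against 44.0 CPM in family I. Family C lay above family D for Maf (54.1 and 52.5 CPM) and for Nr4a2 (190.3 and 153 CPM). Tbx21, which encodes T-bet, was higher at means of 116 and 66.9 CPM. Without family A, 4 genes were lower. The difference was not shared by all such genes, and Lag3, with means of 217 and 247 CPM, and Tox, with 580 and 673 CPM, did not pass.

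Memory genes depended on the family. Of 15 genes, 14 reached the minimum, and 2 were higher, with Id3 among them, and none lower, with a median log2 fold of 0.18. Id3, a regulator of memory T cells, had 299 CPM in family B and 198 CPM in family C, against 158, 173 and 127 CPM in families A, D and I. Without family B, 1 gene was higher and 4 lower, and without family C, 7 were higher and 1 lower. Without family A, 1 was higher.

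The protease genes mostly did not pass. Among the granzyme and perforin genes, Gzmk and Prf1 reached the minimum, and neither passed, at means of 460.4 and 531 CPM and of 281 and 263 CPM. Gzma, the known target of Serpinb6b, had, as given above, 66.1 CPM in family C and 1.23 CPM in family B. Families A, D and I had 0.516, 0 and 0 CPM. Family C had the lowest Serpinb6b, but family D, also low in Serpinb6b at 46.0 CPM, had no Gzma UMI. Family G had 28.9 CPM of Gzma beside 91.4 CPM of Serpinb6b. Gzmb, the known target of Serpinb9, had 3.68 and 6.01 CPM in families B and C. It had 16.5, 13.1 and 132 CPM in families A, D and I, with the highest CPM in family I. Both were under the minimum, with 45 and 82 UMIs. Of 10 lysosomal proteases 7 reached the minimum, and Ctsh, which encodes cathepsin H, was lower at 11.03 and 22.0 CPM against 86.6, 65.7 and 33.0 CPM. The other 6, with Ctsb, Ctsd and Ctsw among them, did not pass, and the median was -0.02. Ctsl, the gene of cathepsin L, had 5 UMIs in all families.

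The cystatin and other inhibitor genes that passed were lower, apart from Bst2. Of 8 genes of that list, 5 reached the minimum, with a median log2 fold of -0.16. Cst7, which encodes the cathepsin inhibitor cystatin F, had means of 480.3 and 856 CPM. Ctla2a, which encodes an inhibitor of cathepsin L-like enzymes, had means of 133 and 259 CPM, and both genes were lower. The sides overlapped for Ctla2a, with 183 and 82.1 CPM in families B and C against 501, 144.5 and 132 CPM in families A, D and I. Family B thus lay above families D and I. Bst2, an interferon-inducible gene that stood on the list although its product is no protease inhibitor, was higher at means of 143 and 67.2 CPM. Of 6 caspase genes 4 reached the minimum and none passed, with a median of 0.07. Of 9 genes of the plasminogen and thrombin system, where Serpine2 acts, none reached the minimum. Plat, Plau and Lrp1 had no UMI in the families, and F2r, which encodes a thrombin receptor, had means of 27.5 and 15.5 CPM from 123 UMIs.

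**Figure D4:**
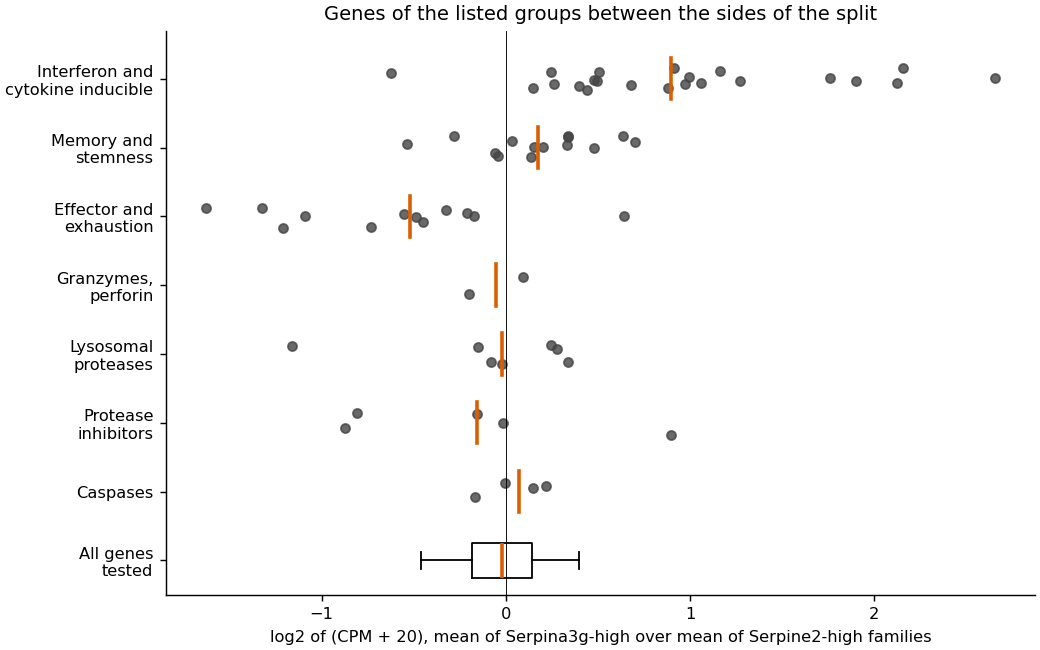
Log2 ratio of CPM + 20 (horizontal axis), mean of the Serpina3g-high families B and C over the mean of the Serpine2-high families A, D and I, for each gene with at least 200 UMIs of 7 lists (points, with the list's median as an orange line) and for all 4716 genes (box from the 25th to the 75th percentile, whiskers to the 5th and 95th). The interferon and cytokine inducible list has its median at 0.90 and the effector and exhaustion list at -0.52, against -0.02 for all genes.

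Over the 12 families, the genes most like Serpina3g were interferon inducible. By Pearson's r of log2(CPM + 20) among 4567 genes, leaving out T cell receptor, ribosomal and similar genes, the 5 most like it included Gbp2 (0.89), Psmb8 (0.88), Igtp (0.88) and Iigp1 (0.86). The r with Serpina3f was 0.87 and that with Serpine2 -0.44. Family G was an exception to a common order, with 120.3 CPM of Gbp2, above the 108 CPM of family C, but 77.0 CPM of Serpina3g. The 5 most like Serpine2 were Slmap (0.85), Pycard (0.83), Lsp1 (0.83), Dazap2 (0.83) and Tox2 (0.80). Family L had 87.1 CPM of Serpine2 but 32.7 CPM of Tox2. Serpinb6b was most like Jak1 (0.90). All families share 1 library, the 12 points differ in depth, and these correlations are descriptions of this library.

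**Figure D5:**
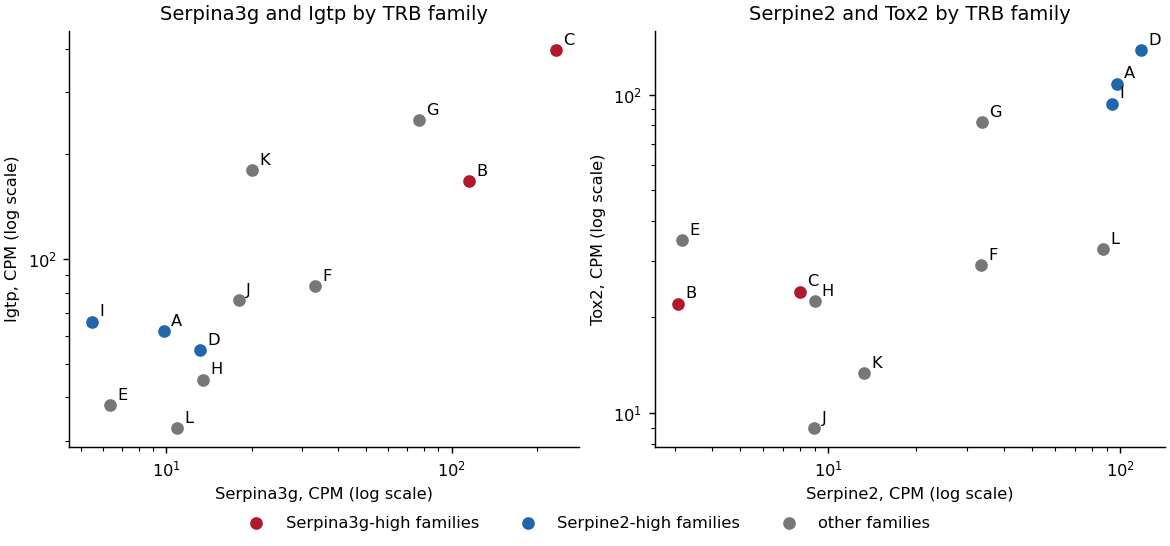
Left, Serpina3g CPM against Igtp CPM, and right, Serpine2 CPM against Tox2 CPM, for the 12 TRB families, with log scales on all axes. Families C and B lead in Serpina3g and C, G, K and B lead in Igtp, while D, A and I lead in both Serpine2 and Tox2 and L, with 8 UMIs of Serpine2, lies near them in Serpine2 and below them in Tox2.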

How the data were processed

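The submitters deposited a gene by barcode matrix of UMI counts, which holds whole numbers and was not normalized, and a table of assembled T cell receptor contigs with a count of UMIs and reads for each. Named in the submitters' processing notes, without roles, are the build GRCm38 and the tools STAR 2.6.1a, cutadapt 1.17 and featureCounts 2.0.1. The sources used here do not give the V(D)J assembler, the use of strand or the treatment of reads that match several genes. The clonotype table, which repeats the contigs, was not used.

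Barcodes under 200 genes, or with 20% or more of their UMIs mitochondrial, were removed, which left 10338 of 10387 barcodes and 22280465 UMIs. The shallowest barcode had 500 UMIs. No doublet caller was run, and barcodes with 2 or more TRB were left out of the families. CPM are UMIs of a gene per 1000000 UMIs of the same cells. For a gene at 0, the level that 3 UMIs in the group would give is printed. Cells and families are not replicates, so no test was run. Genes named are the 6 serpins, all genes named Serpin, the listed groups and the 5 genes most like Serpina3g and Serpine2, and Serpinb6b's first such gene was added after its values were seen. A few of these genes are not reported here. The members and lists were chosen with earlier results of these data known. The family calls were checked on simulated counts with known folds. These counts were drawn with Poisson error from a shared profile, so they cannot test spread between cells or mice. Promoters and positions came from RefSeq tables of GRCm38.p6, where all 6 genes matched. Computation used python 3.11.15, numpy 2.4.6, scipy 1.17.1, pandas 2.3.3, biopython 1.88 and matplotlib 3.10.9.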

Additional observations from a re-analysis of the deposited data

How the results depend on the processing

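Of 165 recomputed values 119 stayed within the main interval or within 1.5 times the main count, and 46 moved. A reversal was looked for in the Serpina3f fold only, and none was found there. The Serpinb6b fold, 1.07 in the main setting, fell below 1 without family B (0.488) and after thinning (0.892). The number of families high in Serpina3g, in Serpine2, in Serpina3f and in both Serpina3g and Serpine2 stayed within 1.5 times under all 32 alternatives, although equal weighting of the other families added family G to those high in Serpina3g, and asking for 100 cells removed family I. Leaving mitochondrial and ribosomal protein genes, Gm42418 and Malat1 out of the UMI total scaled the levels over all cells to 58.6 CPM for Serpina3g, 15.8 for Serpina3f, 54.4 for Serpine2, 62.1 for Serpinb9, 118.6 for Serpinb6b and 21.7 for Serpinb6a, which follows from the smaller total. Among cells with no TRB that carry the main TRA, Serpina3g had 99.1 CPM in family B and 157 in C, Serpina3f 157 in C and 0 in G (1 cell), and Serpine2 133 in A, 39.1 in D and 204 in I. Among cells with 2 or more TRB, Serpina3g had 97.5 CPM in B, Serpina3f 0 in G and Serpine2 48.6 in A. Serpina3f had 164.5 CPM in the 22 cells of G with its main TRA, and Serpine2 85.6 CPM in D after thinning.

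Between the sides of the division, 176 genes were higher and 285 lower. These counts were 271 and 521 without family B, 92 and 122 of 2163 genes after thinning, and 704 and 943 of 8516 genes with at least 50 UMIs, where 8.27% and 11.1% passed. Without family A 334 were higher. Of the memory and stemness list, 6 were higher and 1 lower with cells pooled, 1 and 4 without family B, 1 higher without family A, and 1 lower after thinning. Of the effector and exhaustion list, 4 were lower without family A and 11 with genes of at least 50 UMIs. Of the interferon list, 9 were higher and 0 lower after thinning. The Serpinb6b fold was 1.37 with cells pooled and 0.488 without family B. Without family C, an alternative added after the data were seen, 9 interferon genes were higher, 7 memory genes higher and 1 lower, Serpina3f stood at 6.41-fold and Serpinb6b at 1.64-fold. With at least 500 UMIs per gene, 3 of the 5 genes most like Serpina3g and 3 of those most like Serpine2 stayed. The ratio of shared cells to the product of shares was 0 for Serpina3g with Serpine2 and 4.03 for Serpina3g with Serpina3f after thinning, against 0.797 and 2.58. Apart from these constructions (fewer genes, cells or families), the cause was not tested.

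No paired analysis was possible because each group is 1 library and no value comes from a test. Depth limits the small families, where 3 UMIs are up to 32.7 CPM, and the number of mice is not known.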
